A study of Mus musculus with 18 samples.

Results

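The genes described here are 33 members of the NF-kB pathway, taken by name from a table of 40481 mouse genes: 5 transcription factor subunits, 3 classical inhibitors (IkB proteins), 3 nuclear IkB proteins, 6 kinases or kinase subunits, 8 adaptors, 1 receptor, 4 feedback regulators and 3 other target genes. All 33 had enough reads to be tested among 16575 genes. The members were chosen with earlier results of these data known, so their counts beside those of all genes are descriptive. The samples were 18 RNA sequencing libraries of lung neutrophils from C57BL/6 mice, either wild-type (WT) or lacking Cybb (CGD, for chronic granulomatous disease), the gene of the catalytic part of the NADPH oxidase of phagocytes. Cells were sorted from digested lung as live CD45+ CD11b+ Ly6G+ and split by CD101, a surface protein gained as neutrophils mature. The labels call CD101-positive (CD101pos) cells mature and CD101-negative (CD101neg) cells immature. Each genotype gave 3 groups of 3 libraries: CD101pos cells of naive mice, and CD101pos and CD101neg cells taken 24 hours after 20 µg of zymosan, a preparation of yeast cell wall, was placed in the nose. A naive CD101neg group was not analysed here. The labels give females of 13 weeks for zymosan and males of 12 weeks for the naive groups, so zymosan cannot be told apart from sex and age. The sources used here do not say that replicates came from separate animals, so the p-values rest on a spread between samples that may be technical. In sorted bulk samples, fewer cells expressing a gene and less of its RNA in each cell cannot be told apart.

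NF-kB is a family of dimeric transcription factors held in the cytoplasm by IkB proteins. Signals from pattern recognition and cytokine receptors pass through TRAF adaptors and RIP kinases to the IKK complex, which marks IkB for degradation and frees the dimers to enter the nucleus. The dimers then switch on inflammatory genes together with their own inhibitors, and in neutrophils the pathway is known for controlling cytokine production and survival.

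Libraries held 33.7 to 67.9 M reads in genes. Levels are given as CPM, read counts scaled to a common library total with TMM factors, which ran from 0.702 to 1.24 and were lowest in CGD CD101neg libraries (0.702 to 0.809). With scaling by library size alone, the median log2 difference of all genes moved from -0.08 to -0.57 for CGD against WT in CD101neg cells, and the genes called higher and lower there from 1105 and 1034 to 413 and 3572. Cybb itself lay between 126 and 283 CPM in the 9 WT libraries and between 29.6 and 59.5 CPM in the 9 CGD libraries. All 15 neutrophil markers were detected in every group, with summed levels of 20350 to 121500 CPM.

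The members differed widely in level. Compared per kilobase of exon, Nfkbia, which encodes the inhibitor IkB-alpha, was the most abundant in every group, with 2232 ± 196 CPM per kb (SD, n = 3) in WT naive cells and 6196 ± 749 in CGD CD101neg cells. It took 42.6% to 55.5% of all reads of the 33 members. Next in WT naive cells were the nuclear IkB genes Nfkbiz (275 ± 36.2 CPM per kb) and Nfkbid (236 ± 25.9), whose libraries overlapped. Among the subunits, Rela led with 47.0 ± 3.48 CPM per kb, while Rel stood at 4.04 ± 0.38 and Nfkb1 at 2.97 ± 0.22, without overlap between these subunits' libraries. The order of Rel and Nfkb1 rests on the exon lengths used, 7466 and 12061 bases. In CPM without that division, their WT naive means were 30.2 for Rel and 35.9 for Nfkb1. The kinase gene Ikbke was the lowest member in WT naive cells, at 0.14 ± 0.088 CPM per kb, and reached 35.3 ± 18.4 in CGD CD101neg cells.

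Because NF-kB genes are known to carry binding sites for NF-kB itself, the stretch from 250 bases before to 50 bases after each RefSeq start was searched on both strands for the kappa-B consensus, a 10-letter motif, in build GRCm38.p6. Of the 33 members, 26 were in the promoter table, and 12 of these (46.2%) held a match in at least 1 promoter, against 9.55% of all 27025 genes in the table. Counted by promoter, 14 of 36 (38.9%) held a match, against 8.46% of 32851. The members not in the table were Ikbkb, Map3k8, Nfkb1, Cd40, Nfkbiz, Relb and Ripk2. Printed below are the stretches around the matches of the members that rose in CGD CD101neg cells and of the IkB genes. They run 5′ to 3′ in the direction of the gene, with the matched letters in capitals. Nfkb2 is shown at the first of its listed starts and Nfkbid at the 1 start that held a match.
Rel (chr11:23771016-23771096, minus strand): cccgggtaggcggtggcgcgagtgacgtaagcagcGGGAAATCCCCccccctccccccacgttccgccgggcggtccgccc
Nfkb2 (chr19:46304663-46304736, plus strand): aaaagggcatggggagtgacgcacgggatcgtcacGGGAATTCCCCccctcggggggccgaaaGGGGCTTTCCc
Nfkbie (chr17:45555559-45555638, plus strand): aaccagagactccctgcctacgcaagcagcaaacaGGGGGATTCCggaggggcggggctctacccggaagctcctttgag
Tnip1 (chr11:54962952-54963033, minus strand): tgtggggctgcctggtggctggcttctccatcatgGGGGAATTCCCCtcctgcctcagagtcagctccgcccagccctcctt
Cyld (chr8:88696838-88696917, plus strand): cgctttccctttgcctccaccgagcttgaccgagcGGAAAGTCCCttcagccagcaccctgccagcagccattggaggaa
Sod2 (chr17:13007721-13007800, plus strand): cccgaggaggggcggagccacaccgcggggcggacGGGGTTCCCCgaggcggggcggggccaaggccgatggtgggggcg
Tnfaip2 (chr12:111442602-111442660, plus strand): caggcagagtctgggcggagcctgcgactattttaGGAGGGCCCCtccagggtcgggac
Nfkbia (chr12:55492648-55492711, minus strand): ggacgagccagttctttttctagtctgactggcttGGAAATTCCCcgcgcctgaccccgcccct
Nfkbid (chr7:30422156-30422269, plus strand): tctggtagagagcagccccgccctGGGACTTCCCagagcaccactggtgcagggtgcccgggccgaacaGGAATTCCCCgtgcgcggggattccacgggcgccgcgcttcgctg
The capitals of Rel held 2 overlapping matches and those of Tnip1 held 3. Nfkb2 also held 3 matches, 2 of which overlapped, and Nfkbid held 2 that lay apart. Nfkbib had no match in this window, and the match of Bcl3 lay after the start site. Of the members searched, 7 of 8 that rose in CGD CD101neg cells held a match, as did 5 of the 18 others. By a rise in at least 1 of the 9 comparisons below, the counts were 10 of 16 and 2 of 10. Birc3, Icam1, Ikbke, Nfkbib, Traf1 and Traf6 rose in such a comparison without a match. A match describes the letters of the promoter and is no evidence of binding.

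**Figure D1:**
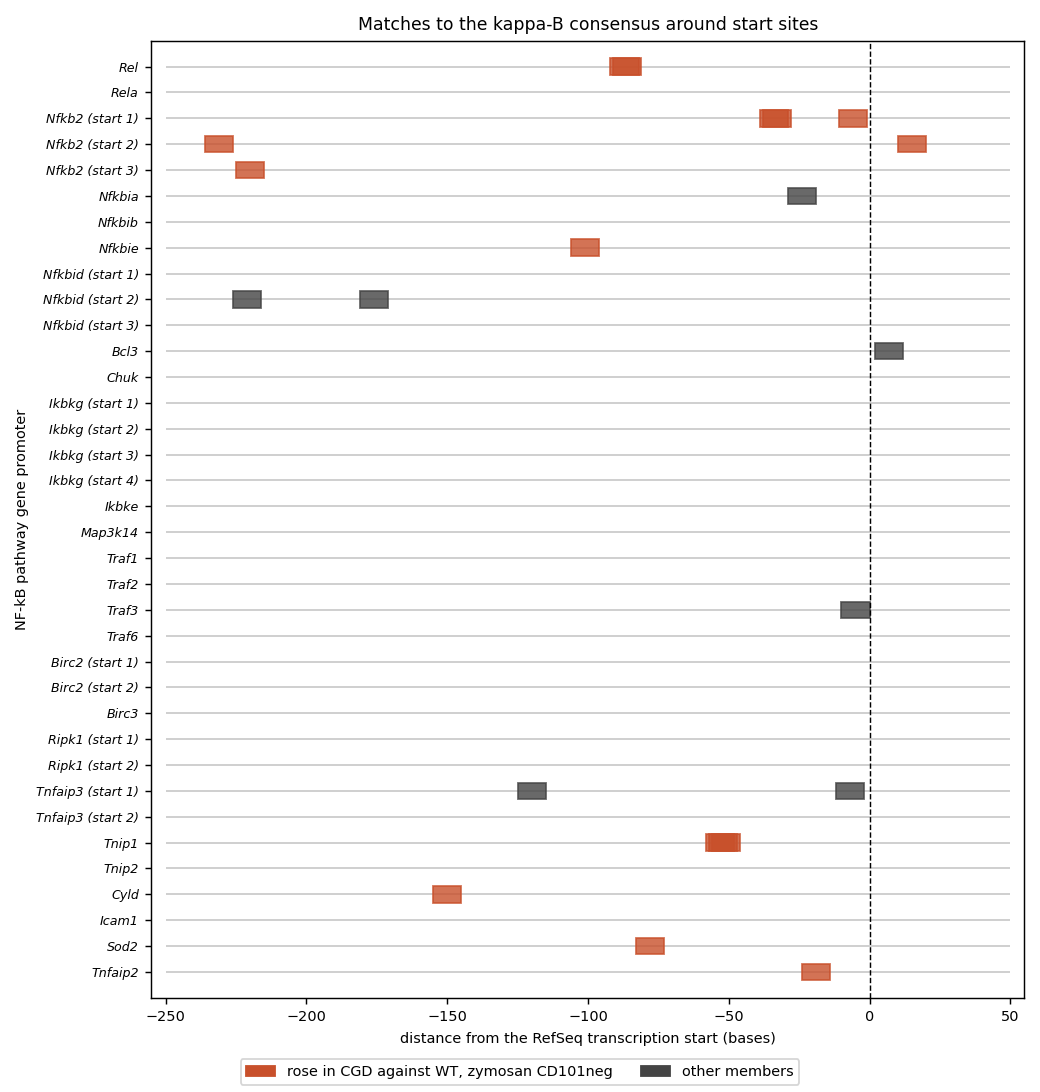
Position of kappa-B matches (boxes 10 bases wide) relative to the RefSeq start in 36 promoters of 26 NF-kB genes, as distance in bases. Orange marks genes that rose in CGD against WT zymosan CD101neg cells, of which 7 of 8 hold a match, and grey marks the other members, of which 5 of 18 do.

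The first question of the design is how loss of the oxidase alters CD101neg cells after zymosan. There, 10 of 33 members rose in CGD cells and none fell, where 6.67% of all genes rose and 6.24% fell (12.9% in either direction). The 10 were 3 subunits (Nfkb1, Nfkb2 and Rel), 2 classical inhibitors (Nfkbib and Nfkbie), the kinase gene Map3k8, the feedback genes Tnip1 and Cyld, and the target genes Sod2 and Tnfaip2. The median log2 fold change of the members was 0.45, against -0.08 over all genes. In 16 members all 3 CGD libraries lay above all 3 WT libraries, and in 1, Ikbkg, below, against 14.7% and 15.3% of all genes.

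Among the subunits, Nfkb1, which encodes p105 and its product p50, stood at 179, 159 and 135 CPM in CGD CD101neg libraries and at 51.8, 55.5 and 53.5 CPM in WT. The lowest CGD library was above every WT library, and the log2 fold change was 1.56 ± 0.18 (SE) with an adjusted p of 2.22e-05 by edgeR's quasi-likelihood test. Nfkb2, which encodes p100 and p52 of the alternative pathway, measured 98.4, 153 and 168 CPM against 64.5, 43.5 and 84.6 CPM in WT (1.13 ± 0.24, adjusted p = 0.00548). Its groups did not overlap, but CGD library 1 was close to WT library 3. For Rel, which encodes c-Rel, the CGD values were 77.4, 83.7 and 96.5 CPM and the WT values 47.3, 28.1 and 42.7 CPM (1.12 ± 0.22, adjusted p = 0.00304), again without overlap. Rela, the gene of the main activating subunit p65, had 219, 212 and 180 CPM against 132, 181 and 174 CPM, with WT library 2 above CGD library 3 (0.33 ± 0.18, adjusted p = 0.247). Relb, the partner of p52, had 47.4, 76.0 and 91.3 CPM against 49.2, 27.0 and 60.6 CPM, and its groups overlapped (0.65 ± 0.30, adjusted p = 0.155).

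Nfkbib, the gene of IkB-beta, measured 289, 323 and 374 CPM in CGD and 135, 100.5 and 159 CPM in WT CD101neg cells (1.32 ± 0.20, adjusted p = 0.000402). Nfkbie, the gene of IkB-epsilon, measured 251, 301 and 318 CPM against 175, 92.6 and 176 CPM (0.97 ± 0.28, adjusted p = 0.0277). For both genes the CGD and WT libraries were fully separated. Nfkbia, by contrast, had 8626, 10353 and 10946 CPM in CGD and 9107, 5744 and 10815 CPM in WT, so that its groups overlapped and the difference of 0.22 ± 0.24 did not pass (adjusted p = 0.583). None of the nuclear IkB genes Nfkbiz, Nfkbid and Bcl3, which modulate the factors on DNA, passed either (log2 fold changes of -0.0035, 0.18 and 0.45).

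Of the kinases, Map3k8, which encodes Tpl2 and binds p105, stood at 258, 288 and 317 CPM in CGD and at 170, 115 and 169 CPM in WT (0.92 ± 0.19, adjusted p = 0.00334), without overlap. Ikbke, the gene of IKK-epsilon, had the largest fitted difference of the members, with 132, 373 and 451 CPM against 87.9, 17.5 and 59.2 CPM. The lowest CGD library exceeded the highest WT library, but the difference of 2.54 ± 0.84 did not pass (adjusted p = 0.0568, and 0.0253 to 0.177 over the alternatives). Chuk, Ikbkb and Ikbkg, the core IKK complex, did not pass (0.31, 0.16 and -0.56), and Ikbkg, the gene of the regulatory subunit NEMO, was the member with every CGD library (55.4, 53.0 and 46.0 CPM) below every WT library (67.3, 62.9 and 97.5 CPM). None of the 8 adaptors passed, the nearest being Birc2 (0.44 ± 0.14, adjusted p = 0.0507). Traf1, whose product binds TNF receptor complexes, measured 379, 375 and 319 CPM against 206, 77.3 and 241.5 CPM (1.03 ± 0.38, adjusted p = 0.0807).

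Among feedback genes, Tnip1, which encodes the A20-binding inhibitor ABIN-1, measured 343, 477 and 496 CPM in CGD and 252, 104 and 213 CPM in WT CD101neg cells (1.21 ± 0.28, adjusted p = 0.00885). Cyld, the gene of a deubiquitinase that restrains the pathway, measured 53.6, 57.3 and 55.7 CPM against 41.0, 40.2 and 35.8 CPM (0.51 ± 0.14, adjusted p = 0.0223). Both were separated between genotypes. Tnfaip3, the gene of the deubiquitinase A20, was not, with 923, 1267 and 1232 CPM against 1260, 676 and 1435 CPM (0.02 ± 0.29, adjusted p = 0.971). Of the targets, Sod2, the mitochondrial superoxide dismutase, stood at 604, 688 and 751 CPM against 319, 168 and 308 CPM (1.36 ± 0.26, adjusted p = 0.00197). Tnfaip2 stood at 738, 767 and 917 CPM against 357, 417 and 473 CPM (0.96 ± 0.20, adjusted p = 0.00458). For both, the CGD libraries were all above the WT libraries, whereas the adhesion gene Icam1 overlapped (929, 1331 and 1690 against 1015, 261 and 808 CPM).

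**Figure D2:**
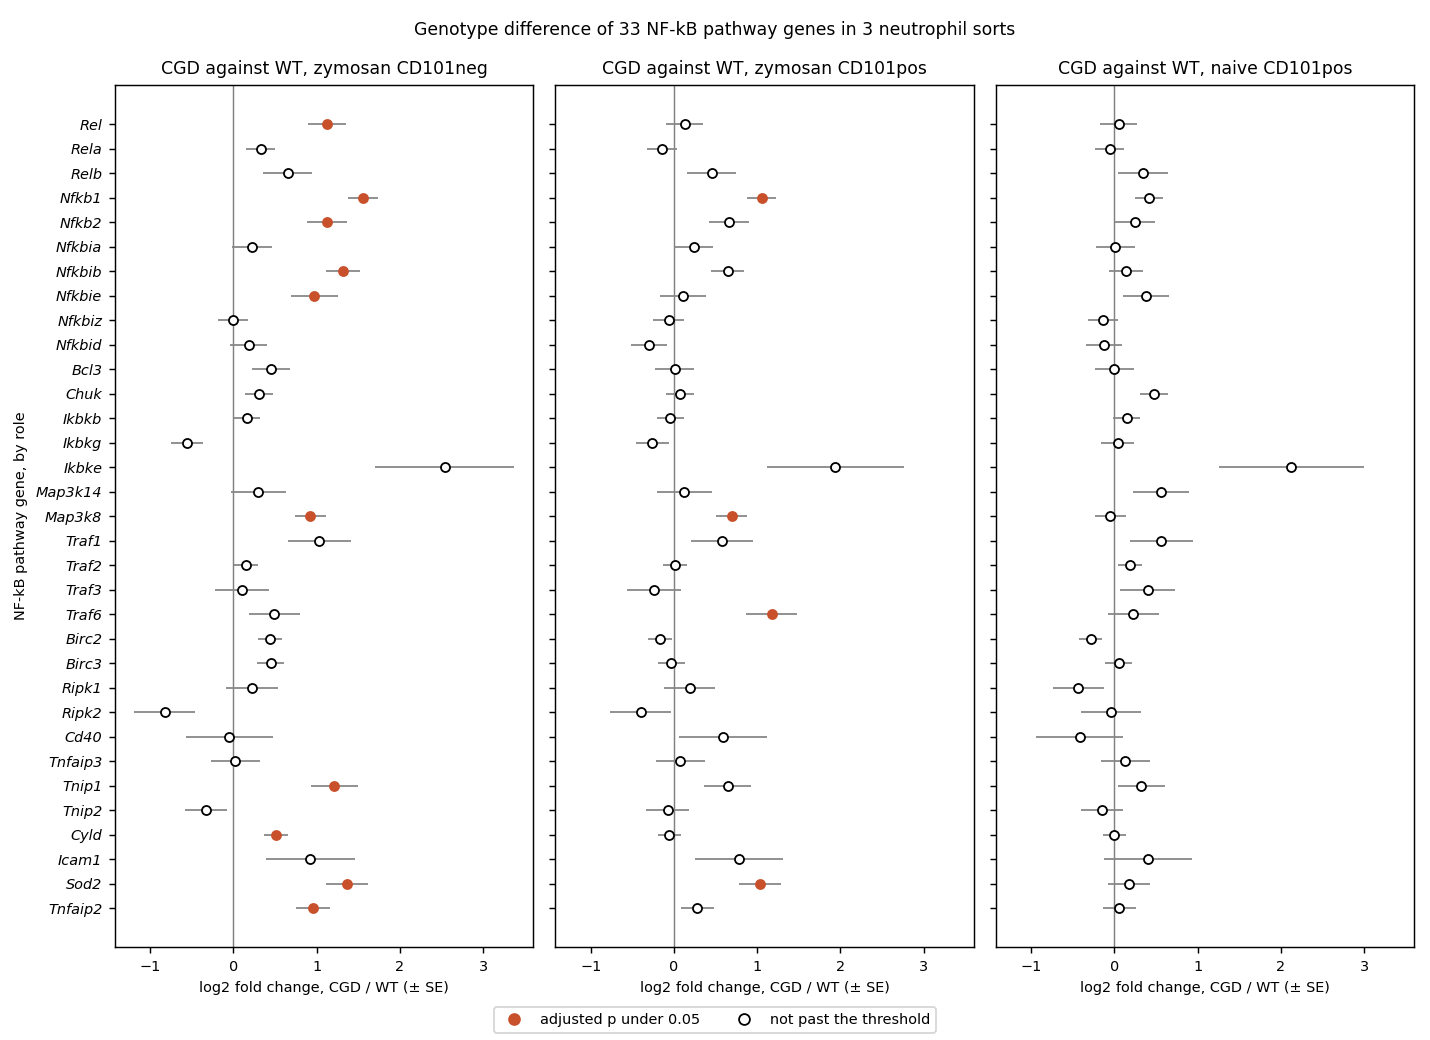
Log2 fold change of CGD against WT (x axis, with SE bars) for the 33 members, ordered by role, in CD101neg cells after zymosan, CD101pos cells after zymosan and naive CD101pos cells. Filled points have an adjusted p under 0.05, 10 members in CD101neg cells, 4 in CD101pos cells after zymosan and 0 in naive cells.

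The size of this group depended on the scaling. With library size alone, 2 of the 10 still passed (Nfkb1 and Nfkbib), all 10 stayed above 0, and Ikbkg and Ripk2 were called lower. Nfkb1 was then 1.63 and Nfkbib 1.39 above the shifted median of all genes, and 30 of 33 members lay above that median under either scaling. Changing the scaling shifts all genes by nearly the same amount, so the place relative to that median cannot test the scaling. Of the 33 members, 14 changed sign between the scalings, none of them among the 10. WT CD101neg library 2 was the lowest of its group in 22 of 33 members (39.6% of all genes). Leaving it out also called Ikbkg (-0.68) and Ripk2 (-1.21) lower and lost Nfkbie, while calls over all genes went from 12.9% to 11.2%. Cyld lost its call without CGD library 1, 2 or 3 or WT library 3, and Nfkbie without CGD library 2 or 3. Adjusted p ran from 8.26e-05 to 0.934 for Cyld and from 0.00625 to 0.326 for Nfkbie over the alternatives. Calls over all genes fell in the same fits, to 9.75%, 6.76% and 8.73% without CGD library 1, 2 or 3 and to 8.61% without WT library 3. In a fit of only these 2 groups, 7.29% of all genes were called. Nfkb2 (0.000258 to 0.12 over the alternatives) and Tnip1 (0.00045 to 0.164) also lost their calls there, while Ikbke passed (adjusted p = 0.0367). DESeq2 called 4 further members as higher. It called 2917 genes in either direction out of all 40481, of which 28513 held any read. By edgeR it was 2139 of the 16575 that passed the filter, so the shares have different bases. The 4 were Birc2 (adjusted p = 0.00395), Birc3 (0.0126), Ikbke (0.0253) and Traf1 (0.0378), whose values over the alternatives reached 0.877, 0.834, 0.177 and 0.386. Markers of other cells differed between these groups too: 8 of 10 B cell markers fell, their sum being 30.0 to 50.2 CPM in CGD and 130 to 154 CPM in WT, with Pax5 at 0 in CGD. For monocytes and interstitial macrophages 9 of 11 fell (713 to 964 against 1016 to 1155 CPM), and for alveolar macrophages 5 of 10 fell and 1, Chil3, rose (1709 to 2714 against 437 to 686 CPM). Their part in the members' differences was not tested.

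In CD101pos cells after zymosan, 4 of 33 members rose in CGD and none fell, where 2.77% of all genes rose and 2.53% fell (5.3% in either direction). All 3 CGD libraries lay above all WT libraries in 7 members and below them in 1, Birc2, against 12% and 9.88% of all genes. Nfkb1 stood at 146, 138 and 99.8 CPM against 54.9, 63.1 and 67.1 CPM in WT (1.05 ± 0.17, adjusted p = 0.0019), and every CGD library was above every WT library. Sod2 stood at 346, 338 and 351 CPM against 188, 114 and 204 CPM (1.03 ± 0.25, adjusted p = 0.0213). Map3k8 stood at 268, 215 and 189 CPM against 148, 119 and 148 CPM (0.69 ± 0.19, adjusted p = 0.0345). These genes also rose in CD101neg cells and their groups did not overlap here. Traf6, the gene of the ubiquitin ligase that links Toll-like and IL-1 receptors to the pathway, rose from 30.5, 17.5 and 26.9 CPM to 56.3, 66.5 and 46.2 CPM (1.17 ± 0.31, adjusted p = 0.0314), again without overlap. Rel, which rose in CD101neg cells, measured 44.0, 39.3 and 43.7 CPM against 46.8, 29.2 and 40.1 CPM (0.13 ± 0.22, adjusted p = 0.83), with the WT libraries on both sides of the CGD ones. Nfkbib (0.65 ± 0.20, adjusted p = 0.0708) and Nfkb2 (0.66 ± 0.24, adjusted p = 0.136) were separated but did not pass.

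The count of 4 rested on single libraries. It was 2 without CGD CD101pos library 1 or WT library 3, and 1, Nfkb1, without CGD library 2 or WT library 2 or with library size scaling. Over all genes the calls fell as well, from 5.3% to 3.93% and 1.97% without CGD library 1 or WT library 3, and to 1.86% and 2.56% without CGD library 2 or WT library 2. Nfkb1 passed under every alternative tried in this comparison. The markers that moved here were 4 of 10 of alveolar macrophages higher (sums of 2327 to 2779 CPM in CGD and 378 to 664 CPM in WT), 4 of 11 of monocytes and interstitial macrophages higher and 1 lower (905 to 1194 against 981 to 1140 CPM), and 5 of 10 of B cells lower (51.8 to 73.2 against 154 to 183 CPM). Their part was not tested.

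In naive CD101pos cells no member passed between genotypes, where 0.127% of all genes did (0.121% higher and 0.00603% lower), by edgeR's quasi-likelihood test. At an unadjusted p under 0.05, where the share of all genes was not counted, there were 3 higher (Nfkb1, Chuk and Ikbke) and 0 lower. DESeq2 called 0. The CGD libraries lay wholly above WT in 5 members (Relb, Nfkb1, Chuk, Map3k14 and Tnip1) and wholly below in 2 (Birc2 and Ripk1), against 7.46% and 7.2% of all genes. Nfkb1 measured 45.6, 53.7 and 44.2 CPM in CGD against 38.1, 36.5 and 32.997 CPM in WT (0.41 ± 0.17, adjusted p = 0.643), and the groups did not overlap. Ikbke was near the floor of its range, with 1.65, 12.0 and 2.77 CPM against 1.91, 0.372 and 1.51 CPM, and CGD library 2 alone stood high (2.13 ± 0.87, adjusted p = 0.643).

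**Figure D3:**
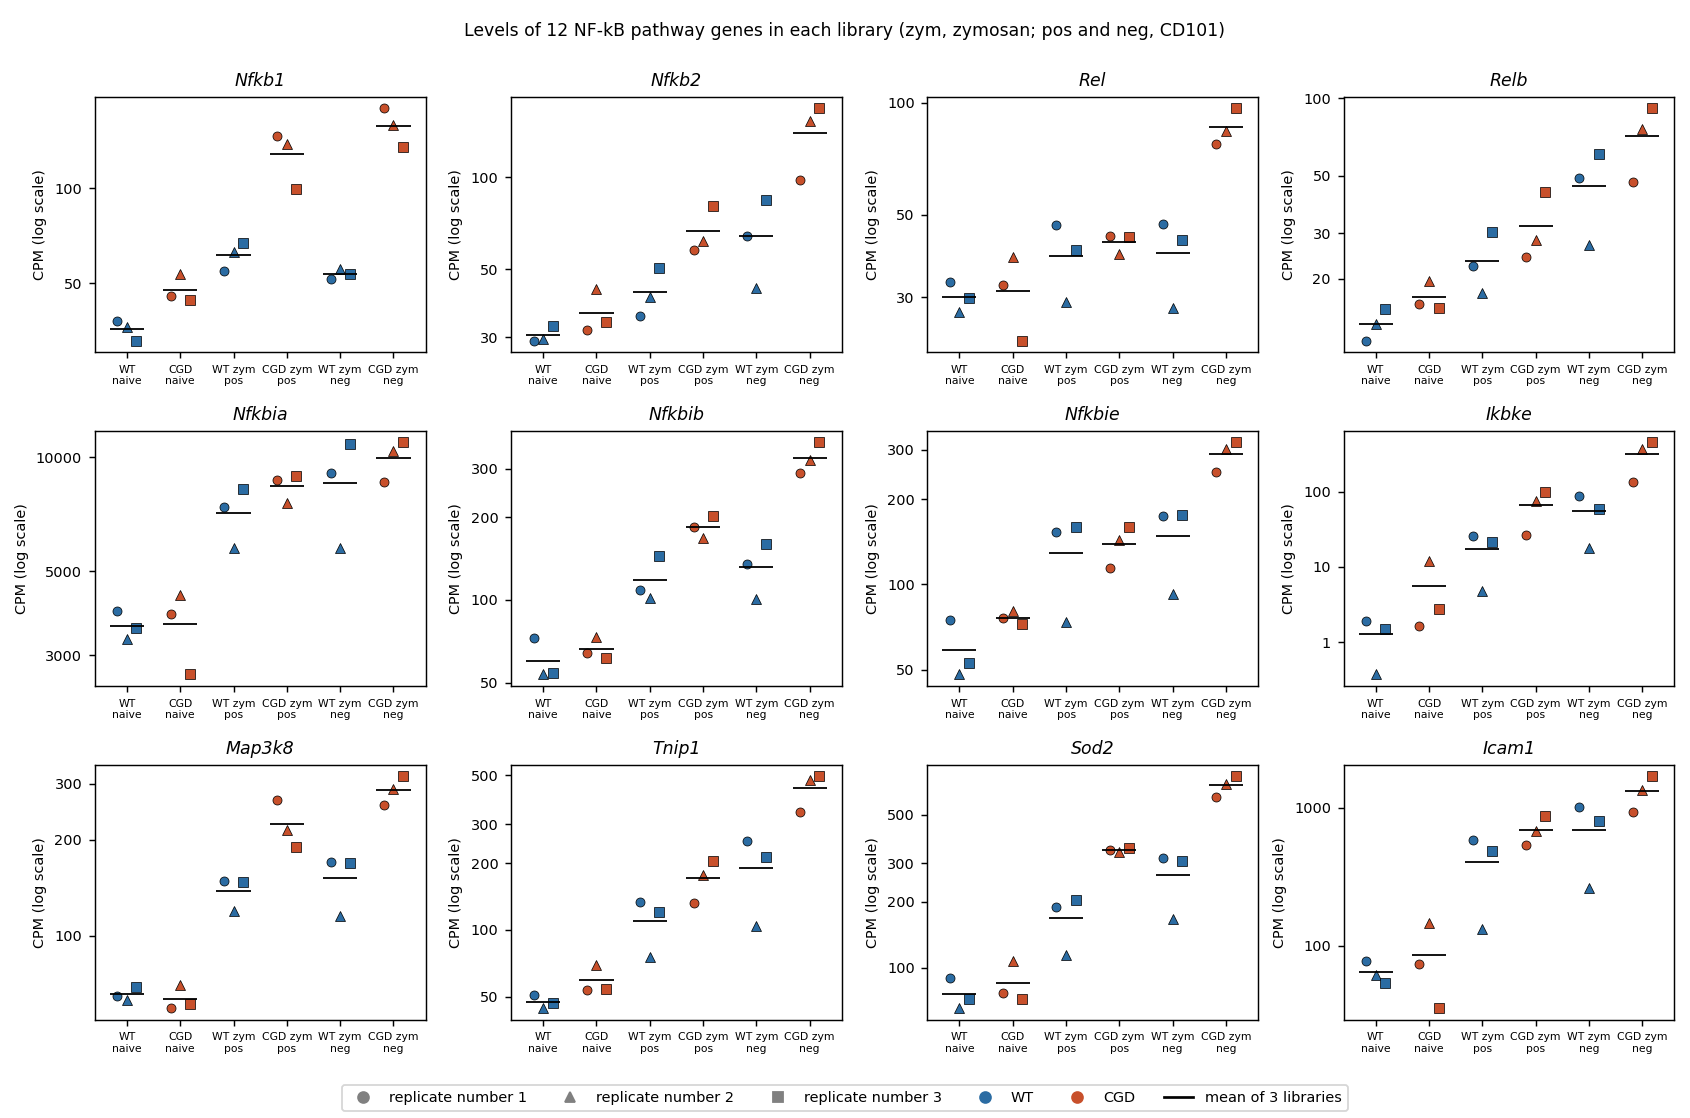
Level in CPM (log axis) of 12 members in each of 18 libraries, by group, with the mean of 3 libraries as a bar and the replicate number as the marker shape. Nfkb1 is high in CGD libraries of both sorts after zymosan (99.8 to 179 CPM), Rel in CGD CD101neg libraries (77.4 to 96.5 CPM), and Nfkbia spans 5744 to 10946 CPM after zymosan in both genotypes.

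Zymosan was compared with the naive state in CD101pos cells, a contrast that also carries sex and age. In WT, 11 of 33 members rose and none fell, where 2.92% of all genes rose and 0.875% fell (3.79% in either direction). In CGD, 16 rose and 1 fell, where 7.13% rose and 5.71% fell (12.8%). The 11 of WT were all among the 16 of CGD: Nfkb1, all 3 classical inhibitors, Ikbke, Map3k8, Traf1, Birc3, Tnip1, Icam1 and Sod2. The median log2 fold change of the members was 0.47 in WT and 0.64 in CGD, against -0.03 and 0.0027 over all genes. Zymosan libraries lay wholly above naive ones in 17 members and wholly below in 2 in WT, against 11.7% and 12% of all genes, and in 20 and 2 in CGD, against 16.1% and 15.8%.

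The largest rises were those of Ikbke and Icam1. Ikbke went from 1.91, 0.372 and 1.51 CPM to 26.0, 4.77 and 21.3 CPM in WT (3.79 ± 0.92, adjusted p = 0.0275) and from 1.65, 12.0 and 2.77 CPM to 26.6, 74.1 and 99.01 CPM in CGD (3.60 ± 0.88, adjusted p = 0.0129). Icam1, which lets leukocytes adhere, went from 78.4, 61.7 and 54.2 CPM to 587, 134 and 485 CPM in WT (2.63 ± 0.56, adjusted p = 0.012) and from 73.6, 147 and 35.4 CPM to 536, 673 and 864 CPM in CGD (3.02 ± 0.57, adjusted p = 0.00189). Zymosan libraries of each genotype lay above its naive libraries for both genes, and WT library 2 was the lowest of the WT zymosan libraries for both. Among the inhibitors, Nfkbia went from 3936, 3315 and 3531 CPM to 7401, 5759 and 8234 CPM in WT (0.99 ± 0.24, adjusted p = 0.0249) and from 3863, 4338 and 2671 CPM to 8692, 7551 and 8946 CPM in CGD (1.21 ± 0.24, adjusted p = 0.00246). Nfkbib rose by 0.97 ± 0.20 in WT and 1.48 ± 0.20 in CGD, and Nfkbie by 1.14 ± 0.28 and 0.87 ± 0.28.

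Map3k8 went from 64.8, 62.8 and 68.8 CPM to 148, 119 and 148 CPM in WT (1.08 ± 0.19, adjusted p = 0.00228) and from 59.1, 69.9 and 60.7 CPM to 268, 215 and 189 CPM in CGD (1.82 ± 0.19, adjusted p = 5.01e-06). Birc3, the gene of the ubiquitin ligase cIAP2, went from 242.7, 221 and 252 CPM to 427, 387 and 499 CPM in WT and from 238, 232 and 271 CPM to 478, 423 and 383 CPM in CGD. No zymosan library of these genes fell within the naive range. Nfkb1 rose by 0.78 ± 0.17 in WT and 1.42 ± 0.18 in CGD, and Sod2 by 1.16 ± 0.25 and 2.02 ± 0.26. In CGD, Nfkb2 (0.88 ± 0.24), Relb (0.92 ± 0.30, adjusted p = 0.0495), Nfkbiz (0.64 ± 0.18), Traf6 (1.67 ± 0.31) and Tnfaip3 (0.96 ± 0.30) rose as well. Their values in WT were 0.47, 0.80, 0.57, 0.72 and 1.01 and did not pass. With DESeq2, Nfkbiz (adjusted p = 0.0101) and Tnfaip3 (0.0145) did pass in WT, where 1228 of 40481 genes were called and 28513 held any read. Of 12 alternatives, the CGD call was lost in 4 for Nfkb2, 6 for Relb, 7 each for Nfkbiz and Tnfaip3 and 0 for Traf6. The member that fell in CGD was Ripk2, the kinase downstream of NOD receptors, from 7.33, 7.36 and 6.99 CPM to 3.08, 2.49 and 3.27 CPM (-1.29 ± 0.37, adjusted p = 0.0257), and in WT it went from 6.75, 8.01 and 7.61 CPM to 3.92, 2.77 and 4.95 CPM (-0.94 ± 0.36, adjusted p = 0.177). Neither genotype's Ripk2 groups overlapped.

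Whether zymosan acted differently in the genotypes was tested by the interaction. No member passed, where 0.32% of all genes did (0.163% higher and 0.157% lower), by edgeR's quasi-likelihood test. DESeq2 called 0. At an unadjusted p under 0.05, where the share of all genes was not counted, there were 4 higher (Nfkb1, Map3k8, Traf6 and Sod2) and 0 lower. The largest of these was Traf6, at 0.95 ± 0.43 (adjusted p = 0.436).

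The count in WT was sensitive to its libraries. It was 2 without WT naive library 2 or 3, 6 without WT zymosan library 1, 3 without WT zymosan library 3, and 5 with library size scaling, under which the genes called higher and lower went from 484 and 145 to 264 and 617. Calls over all genes fell too, from 3.79% to 1.58% and 1.54% without WT naive library 2 or 3, and to 2.97% and 2.09% without WT zymosan library 1 or 3. Both WT zymosan libraries numbered 2 were the lowest of their groups in 19 of 33 members (24.2% of all genes). Without them, a choice made after seeing this, the WT count was 14 and 4.21% of all genes were called. Map3k8 and Birc3 passed under every alternative. In CGD, the count of 17 in either direction was 10 without CGD naive library 1, and calls over all genes fell from 12.8% to 7.96%. Library size scaling gave 11 higher and 1 lower there, with 727 genes higher and 2021 lower against 1182 and 946. Marker levels that went with zymosan were 7 of 10 of alveolar macrophages higher in WT and 5 of 10 in CGD (naive sums of 148 to 164 and 172 to 423 CPM), with 8 of 10 of B cells lower in each (naive sums of 450 to 474 and 315 to 454 CPM), and monocytes and interstitial macrophages with 4 of 11 higher in WT, and 5 higher and 2 lower in CGD. Their part was not tested.

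**Figure D4:**
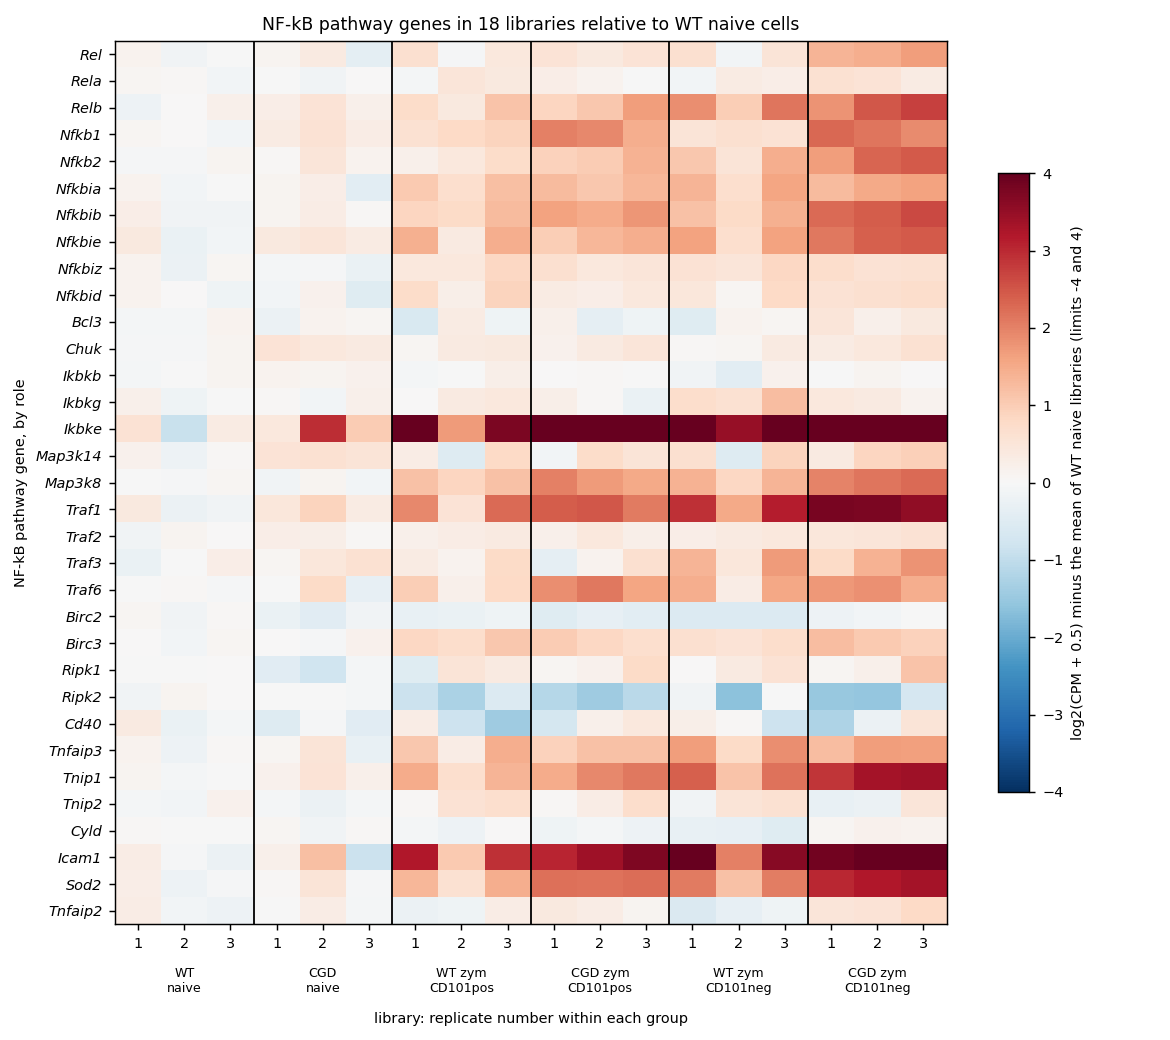
Heat map of log2(CPM + 0.5) of the 33 members in 18 libraries, minus the mean of the WT naive libraries, on a colour scale limited to -4 and 4. Ikbke, Icam1, Traf1, Tnip1 and Sod2 have the highest mean differences in CGD CD101neg libraries, and library 2 of both WT zymosan groups is the lowest of its group in 19 of the 33 members.

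The sorted subsets were compared within each genotype after zymosan. These comparisons share libraries with those between genotypes, so the values are set side by side and not counted as further support. In CGD, 9 of 33 members were higher in CD101neg than in CD101pos cells and none lower, where 3.27% of all genes were higher and 4.08% lower (7.35% in either direction). They were the subunits Rel (1.02 ± 0.22, adjusted p = 0.0117), Relb (1.16 ± 0.30) and Nfkb2 (1.07 ± 0.24), the inhibitors Nfkbib (0.83 ± 0.20) and Nfkbie (1.06 ± 0.28), the adaptors Traf1 (1.38 ± 0.38) and Traf3 (1.21 ± 0.33), and Tnip1 (1.35 ± 0.28, adjusted p = 0.0094) and Sod2 (0.98 ± 0.25). Rel went from 44.0, 39.3 and 43.7 CPM in CD101pos to 77.4, 83.7 and 96.5 CPM in CD101neg libraries. Tnip1 went from 133, 178 and 205 CPM to 343, 477 and 496 CPM. In 19 members every CGD CD101neg library was above every CD101pos library, against 14.5% of all genes, and in 0 the reverse, against 14.4%. Nfkb1 was not among them, with 179, 159 and 135 CPM against 146, 138 and 99.8 CPM (0.30 ± 0.17, adjusted p = 0.315).

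In WT no member passed between subsets, where 0.44% of all genes did (0.41% higher and 0.0302% lower), by edgeR's quasi-likelihood test. At an unadjusted p under 0.05, where the share of all genes was not counted, there were 7 higher and 1 lower. DESeq2 called 0. Every CD101neg library was above every CD101pos library in 1 member, Ikbkg, and below in 2, Birc2 and Cyld, against 6.73% and 5.22% of all genes. WT libraries of the same number deviated together across the sorts, with correlations of 0.312 to 0.487 across genes. With that pairing as a replicate block within genotype, 10 members were higher in WT CD101neg cells and none lower, where 5.05% of all genes were higher and 5.98% lower (11% in either direction). Ikbke was the clearest, going from 26.0, 4.77 and 21.3 CPM in CD101pos libraries 1, 2 and 3 to 87.9, 17.5 and 59.2 CPM in the CD101neg libraries of the same numbers (blocked value 1.69 ± 0.13, adjusted p = 2.07e-07). Traf1 went from 104, 39.9 and 132 CPM to 206, 77.3 and 241.5 CPM (0.93 ± 0.12, adjusted p = 6.84e-05). Icam1 went from 587, 134 and 485 CPM to 1015, 261 and 808 CPM (0.82 ± 0.12, adjusted p = 0.000269). Each of these genes was higher in the CD101neg library of every pair, although library 2 was low in both sorts. Relb (0.92), Traf3 (0.80), Tnip1 (0.73), Sod2 (0.63), Ikbkg (0.57), Nfkb2 (0.56) and Tnfaip3 (0.49) made up the 10. Rel was level in WT, at 46.8, 29.2 and 40.1 CPM in CD101pos and 47.3, 28.1 and 42.7 CPM in CD101neg libraries (blocked value 0.011 ± 0.13). The same fit called 14 members higher and 1 lower between the CGD subsets, where 11.7% and 13.1% of all genes were (24.8% in either direction).

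**Figure D5:**
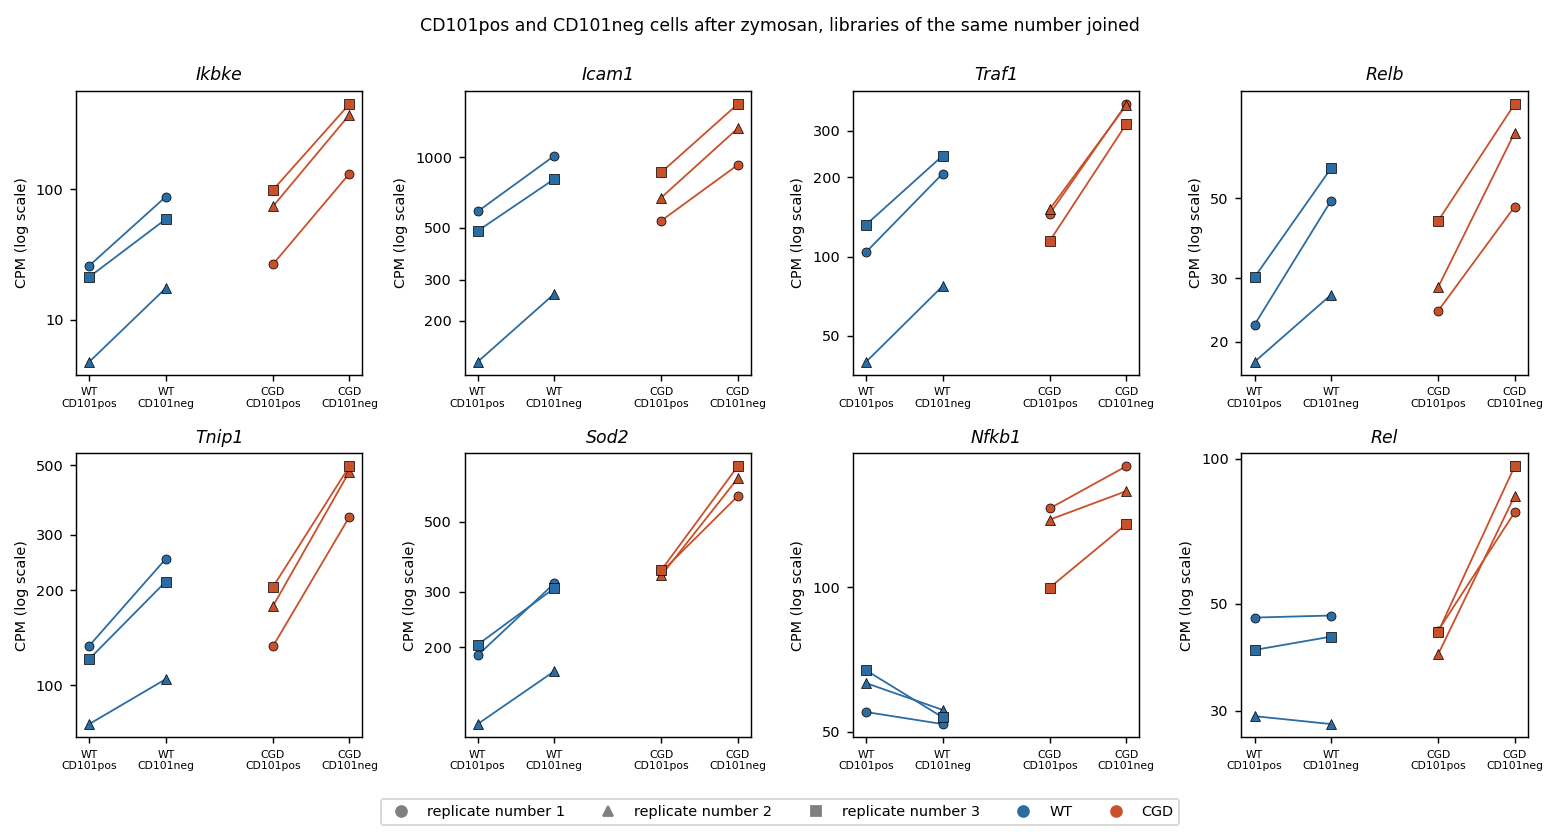
Level in CPM (log axis) of 8 members in CD101pos and CD101neg cells after zymosan, with libraries of the same genotype and number joined by a line. Ikbke, Icam1, Traf1, Relb, Tnip1 and Sod2 are higher in CD101neg cells in all 3 WT pairs, while Rel is level in WT and goes from 39.3 to 44.0 CPM up to 77.4 to 96.5 CPM in CGD.

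The interaction of genotype with subset compares the size of the subset difference in CGD with that in WT. It passed in no member, where 0.851% of all genes passed (0.181% higher and 0.67% lower), by edgeR's quasi-likelihood test. DESeq2 called 3 (Rel, Cyld and Birc2), where it called 584 of 40481 genes, of which 28513 held any read, against 141 of 16575 by edgeR. At an unadjusted p under 0.05, where the share of all genes was not counted, there were 6 higher (Rel, Nfkbib, Nfkbie, Birc2, Cyld and Tnfaip2) and 0 lower. Rel had the largest of the 6, at 1.00 ± 0.31 (adjusted p = 0.141). With the block within genotype, 7 members passed as higher and 1 as lower, where 5.96% and 8.16% of all genes did (14.1% in either direction). The median over the members was 0.33, against -0.0080 over all genes, and with library size scaling -0.16 against -0.45.

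The CGD subset count was 2 without CGD CD101neg library 2 or CD101pos library 1, 1 without CD101neg library 3 or CD101pos library 2, and 6 without CD101pos library 3. The share of all genes called fell in the same fits, from 7.35% to 1.86% and 2.13% without CD101neg library 2 or 3 and to 5.27%, 2.39% and 2.56% without CD101pos library 1, 2 or 3. The members' count was 0 with library size scaling, under which the 9 stayed above 0 and 14 of 33 members changed sign. The median of all genes was then -0.34, and the genes called higher and lower went from 542 and 676 to 82 and 1163. In WT, leaving out CD101neg library 2 called 2 members, Relb (1.23) and Tnip1 (1.08), while calls over all genes rose from 0.44% to 2.32%. Beside the CGD subset difference, 7 of 11 markers of monocytes and interstitial macrophages and 6 of 10 of alveolar macrophages were lower in CD101neg cells. The same 2 lists held 6 and 4 markers with a negative interaction. Their part was not tested.

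Other genes of the pathway were read from lists of 33 upstream receptors and adaptors, 26 ubiquitin and feedback regulators and 46 other known targets, all tested. These lists too were chosen with earlier results of these data known. Their counts beside those of all genes are therefore descriptive and no independent support. In CGD against WT CD101neg cells, 5 upstream genes rose and 1 fell, where 6.67% of all genes rose and 6.24% fell. Irak3, a kinase-like brake on Toll-like receptor signalling, stood at 231, 324 and 299 CPM in CGD and at 53.4, 41.5 and 57.5 CPM in WT (2.49 ± 0.21). It was joined by the peptidoglycan sensors Nod2 (0.80 ± 0.15) and Nod1 (0.89 ± 0.23), while the flagellin receptor gene Tlr5 fell (-1.01 ± 0.25). Of the ubiquitin and feedback genes 6 rose and none fell, led by Nlrc5 (1.98 ± 0.29), the TANK-binding kinase Tbk1 (1.06 ± 0.20), the ubiquitin-conjugating enzyme Ube2n (0.86 ± 0.17) and Azi2 (0.64 ± 0.15). Of the targets 10 rose and 1, Ccr7, fell. Leading were the neutrophil chemoattractant Cxcl3 (3.24 ± 0.30), the costimulatory gene Cd80 (1.37 ± 0.16), the granulocyte growth factor Csf3 (2.44 ± 0.31) and the transcription factor Irf1 (2.18 ± 0.28). Ccr7 was also 1 of 9 dendritic cell markers, whose sum was 12.6 to 14.6 CPM in CGD and 17.3 to 26.5 CPM in WT. The part of such cells was not tested.

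In CD101pos cells after zymosan, 2.77% of all genes rose and 2.53% fell between genotypes. Upstream, Irak3 (1.14 ± 0.20) and the lipopolysaccharide receptor Tlr4 (0.67 ± 0.19) rose and Tlr5 (-1.67 ± 0.25) fell. Nlrc5 (1.38 ± 0.28) and Tbk1 (0.97 ± 0.20) were the 2 of 26 feedback genes that rose. Of 46 targets 9 rose, led by Cxcl3 (2.93 ± 0.30), Irf1 (1.57 ± 0.28), Myc (1.49 ± 0.29) and the chemokine Ccl5 (1.34 ± 0.29), and none fell. In naive cells the calls were 2 targets, the survival gene Bcl2l1 (1.56 ± 0.29) and the monocyte chemoattractant Ccl2 (1.48 ± 0.28), and none in the other lists, where 0.121% of all genes rose and 0.00603% fell.

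With zymosan, 18 of the 46 targets rose and 1 fell in WT, where 2.92% of all genes rose and 0.875% fell. In CGD 27 rose and 1 fell, where 7.13% rose and 5.71% fell. Leading in WT were the acute phase gene Saa3 (8.06 ± 0.70), Tnfsf9 (2.95 ± 0.29), Cxcl3 (2.67 ± 0.29) and Bcl2l1 (2.69 ± 0.30), and in CGD Cxcl3 (4.35 ± 0.32), Saa3 (6.60 ± 0.63), Tnfsf9 (2.79 ± 0.29) and Csf3 (2.53 ± 0.32). Of the upstream genes 3 rose in WT, namely Tlr4 (1.41 ± 0.20), Tlr1 (3.08 ± 0.69) and Tradd (0.80 ± 0.19). In CGD 8 rose and 1 fell, led by Tlr4 (1.71 ± 0.20), Irak3 (1.35 ± 0.20), Tlr5 (-1.29 ± 0.24) and Il1rap (1.42 ± 0.32). The feedback genes that rose were 3 in WT, Peli2 (1.08 ± 0.23), Tank (0.84 ± 0.21) and Pdlim2 (1.02 ± 0.28), and 7 in CGD, led by Tbk1 (1.31 ± 0.20), Tank (1.03 ± 0.21), Nlrc5 (1.28 ± 0.28) and N4bp1 (1.12 ± 0.27).

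Between the subsets of CGD, 3.27% of all genes were higher in CD101neg cells and 4.08% lower. The upstream genes that were higher numbered 4, namely Irak3 (1.65 ± 0.20), Tradd (0.85 ± 0.19), Tlr2 (0.68 ± 0.19) and Malt1 (1.27 ± 0.37). Of the feedback genes 5 rose, led by Fbxw11 (0.78 ± 0.19), Ube2v1 (1.06 ± 0.28), Ube2n (0.62 ± 0.17) and Otud7b (0.68 ± 0.20). The targets gave 3 higher and 2 lower, among them Csf3 (1.72 ± 0.31), Cflar (1.02 ± 0.23), Ccr7 (-2.12 ± 0.41) and Vcam1 (-1.03 ± 0.23). The dendritic cell marker sum, which holds Ccr7, was 12.6 to 14.6 CPM in CD101neg and 30.5 to 44.9 CPM in CD101pos cells. The part of such cells was not tested. In WT the adaptor Ticam1 (1.15 ± 0.24) was the 1 gene of the 3 lists that passed, where 0.41% of all genes were higher and 0.0302% lower.

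In the fit of 18 libraries without a block, the members that passed in none of the 9 comparisons numbered 12. They were Rela, the nuclear IkB genes Nfkbid and Bcl3, the IKK genes Chuk, Ikbkb and Ikbkg, the NF-kB-inducing kinase Map3k14, Traf2, Birc2, Ripk1, the receptor Cd40 and the A20-binding gene Tnip2. Rela stayed between 130 and 219 CPM in all 18 libraries and Ikbkb, which encodes the catalytic kinase IKK-beta, between 34.4 and 54.2 CPM. Traf2 stayed between 17.8 and 29.2 CPM. Cd40 was among the lowest members, at 0.958 to 5.06 CPM, and Ripk1, a kinase of TNF signalling, ranged from 6.65 to 26.8 CPM with CGD CD101neg library 3 the highest. Birc2, the gene of cIAP1, was lower in every WT CD101neg library (21.7, 21.9 and 21.9 CPM) than in the CGD ones (28.0, 29.3 and 31.5 CPM), a difference that did not pass (adjusted p = 0.0507) but did with RLE factors (0.0391), the replicate block (0.0464) and DESeq2 (0.00395), with 0.00395 to 0.877 over the alternatives. Other fits called 7 of the 12 at least once. The block within genotype called Ikbkg between the WT subsets, Rela (0.34), Bcl3 (0.46) and Tnip2 (-0.40) between the CGD subsets and Birc2 (0.59) in the interaction with subset. The block over 18 libraries called Ripk1 (0.80) and DESeq2 called Nfkbid (0.66) with zymosan, in CGD and in WT. Chuk, Ikbkb, Map3k14, Traf2 and Cd40 passed in no fit run. These values show the measured spread and do not show that the genes were unaffected. How strand was used in counting is not stated, and reads of overlapping genes may therefore be shared. Of exonic bases, 18.1% in Nfkb2, 16.4% in Nfkbib and 11.7% in Icam1 are shared with another gene in the GENCODE annotation used for lengths, and their values carry that uncertainty.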

How the data were processed

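RNA was measured in 18 libraries of total RNA made with the SMARTer kit, per the labels' protocols. The authors deposited whole-number read counts for each gene. The submitters' processing notes name STAR 2.5.1a, featureCounts 1.4.6-p5 and Subread. Genome build, annotation and use of strand: not given in the sources used here. Of 40757 lines, 276 repeated a gene ID and were counted once, and no sample column was left out.

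Comparisons used edgeR 4.0.16 (R 4.3.3) and its robust quasi-likelihood test in 1 fit of 18 libraries with TMM factors, the filter filterByExpr by group and 12 residual degrees of freedom. Calls have an adjusted p under 0.05 (Benjamini-Hochberg over 16575 genes). The SE is the log2 fold change divided by the square root of F. The method was tested on simulated data. Per-kilobase levels use the union of exons in GENCODE M21, and promoters come from RefSeq (GRCm38.p6).

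All members are named, and of each other list up to 4 genes of lowest p among those past the threshold in a comparison. The members and lists were chosen with earlier results of these data known. Numbers in the sample titles were checked as pairs. Between the WT sorts all same-number correlations of deviations from group means exceeded 0.1 (0.312 to 0.487), so the blocked result is given in the report. Between the CGD sorts they ran from 0.0245 to 0.26 and did not all exceed it. Alternatives were DESeq2 1.42.0, RLE factors, scaling by library size alone, no filter on low counts, fits of the compared groups alone, the replicate block, and each library left out. The B cell marker Ighd was not matched and was not used here.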

Additional observations from a re-analysis of the deposited data

Results flagged for a closer look

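A test of the difference between genotype effects passed in 3 pathway genes outside the 33 members, by edgeR's quasi-likelihood test with Benjamini-Hochberg adjustment. Of the 105 genes of the 3 lists, 2 passed in the interaction with subset, where 0.851% of all genes did. In the interaction with zymosan 1 of the 105 passed, where 0.32% of all genes did. For Irak3 the CD101neg against CD101pos difference was larger in CGD than in WT by 1.35 ± 0.28 (SE, log2, adjusted p = 0.0239). For Ccr7 the same difference was lower in CGD by -2.50 ± 0.56 (adjusted p = 0.0431). Ccr7 was also 1 of 9 dendritic cell markers. Their sum, Ccr7 included, was 12.6 to 14.6 CPM in CD101neg and 30.5 to 44.9 CPM in CD101pos cells of CGD. In WT it was 17.3 to 26.5 and 16.4 to 34.5 CPM. The part of such cells was not tested. For Tlr5 the zymosan against naive difference of CD101pos cells was lower in CGD than in WT by -1.74 ± 0.34 (adjusted p = 0.0363).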

How the results depend on the processing

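Counts of members past the threshold moved by over 1.5 times as follows. Library size scaling gave 4 for CGD against WT in CD101neg cells, with Nfkb1 and Nfkbib higher and Ikbkg and Ripk2 lower. It gave 1 in CD101pos cells, 0 for the CGD subsets and 5 for WT zymosan against naive. Fits of only the groups compared gave 2 for CGD against WT in zymosan CD101pos cells, where calls over all genes fell from 5.3% to 3.86%. DESeq2 gave 3 for the interaction with subset, where it called 584 genes, against 141 by edgeR. With libraries left out in turn, counts in either direction ran from 8 to 11 and from 1 to 4 for CGD against WT in CD101neg and CD101pos cells. For the WT and CGD subsets they ran from 0 to 2 and 1 to 8. For zymosan in WT and CGD they ran from 2 to 12 and 10 to 14. The replicate block within genotype gave 10 for the WT subsets, 15 for the CGD subsets (14 higher and 1 lower) and 8 for the interaction with subset (7 higher and 1 lower). The same number as 1 block over all 18 libraries moved no count by over 1.5 times. In CGD the samples shared a number but not all correlations exceeded 0.1, although each correlated best with its own number. The causes were not tested. No called member changed direction under any alternative run. The fit without both WT zymosan libraries numbered 2 was chosen after seeing the data. With 3 libraries a group, small differences such as that of Cyld were not stable, and low members such as Cd40 and Ripk2 rest on few reads.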
